A study of Homo sapiens with 20 samples.

Results

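Aminoacyl-tRNA synthetases are the enzymes that load each tRNA with its amino acid. The count table of this study listed 37 of their genes, chosen by symbol among 17113 protein-coding genes: 20 encode the cytosolic enzymes (symbols ending in 1, and EPRS1, FARSA and FARSB) and 17 encode the mitochondrial enzymes (symbols ending in 2). All 37 passed the filter on low counts. Their mRNA was lower in extracellular vesicles than in the parent cells for 26 of the 37, and the falls were widest among the enzymes with the longest coding sequences. Of all genes tested 28.1% were lower, and of well-expressed genes 39.3%.

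RNA was sequenced from the extracellular vesicles and from the cells of 10 human colorectal cancer lines, namely COLO-201, HCT 116, HT-29, LoVo, LS1034, LS123, LS513, SNU-C1, SW480 and WiDr. Extracellular vesicles are membrane-bound particles that cells shed into the medium, and the study asked how far their transcriptome follows that of the cell. The vesicle group (10 libraries) holds RNA from an exosome RNA kit that was amplified with SMART-Seq v4 and made into libraries with Nextera XT, and the cell group (10 libraries) holds total RNA prepared with the KAPA stranded RiboErase kit, all from untreated cultures in RPMI-1640 or DMEM with fetal bovine serum. Compartment and library kit therefore coincided in every line, and their contributions cannot be told apart. Each line gave 1 library per compartment, so the replicate was the line (n = 10) and no culture of a line was repeated. WiDr is known as a derivative of HT-29.

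Most synthetases serve a single compartment: the cytosolic enzymes feed the ribosomes that translate nuclear genes, and a separate set of nuclear genes encodes the enzymes imported into mitochondria. GARS1 (glycine) and KARS1 (lysine) each supply both compartments, and QARS1 (glutamine) is cytosolic, since mitochondria make glutaminyl-tRNA through EARS2 and an amidotransferase. Several cytosolic enzymes are held in the multisynthetase complex on the scaffold proteins AIMP1, AIMP2 and EEF1E1, and many cytosolic synthetase genes are known targets of ATF4, the transcription factor of the amino acid response.

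Total counts per library were 1.75 to 24.4 M in vesicles and 24.8 to 37.4 M in cells, and were lower in vesicles in 10 of 10 lines (two-sided exact sign-flip permutation test, p = 0.00195). A count of 0 therefore allows up to 3 counts, or 0.136 to 0.939 CPM in vesicles and 0.0957 to 0.157 CPM in cells. These limits cover counting error only, since the reads carry no recorded molecular identifiers. CPM here means counts scaled to library size after TMM, a correction for library composition. Genes silent in the cells (2077 genes, none above 10 counts in any cell library) still gathered reads in vesicle libraries, and a model of those reads on exonic length and GC content gave the background share of each library. It was 1.77 to 44.4% of the counts in vesicle libraries and 0.0302 to 0.154% in cell libraries. The 5 vesicle libraries of lower background were SW480, COLO-201, HT-29, HCT 116 and LS513 (1.77 to 6.34%), and those of higher background were LS1034, LoVo, WiDr, LS123 and SNU-C1 (16.7 to 44.4%). The vesicle libraries of lower background were also the deeper ones, at 4.62 to 24.4 M counts, against 1.75 to 4.51 M for the others. Background and sequencing depth therefore cannot be told apart in any comparison between these sets of lines. Colon epithelial markers were present in both compartments, with 9 of 10 at a median of at least 10 CPM in vesicles and 9 of 10 in cells. Marker sums of other cell types were 21.3 to 225 CPM in vesicles, against 0.262 to 12.3 CPM in cells, for fibroblast and endothelium, and 3.004 to 191 CPM, against 0.145 to 10.2 CPM, for erythroid cells and platelets. Those of leukocytes were 5.06 to 875 CPM in vesicles, against 0.0725 to 3273 CPM in cells, and those of hepatocyte and serum proteins 11.4 to 473 CPM, against 0.159 to 916 CPM. Of all these markers, 2 fibroblast and 2 hepatocyte ones reached a median of 10 CPM in vesicles, against 1 leukocyte and 1 hepatocyte one in cells, and their part in the results was not tested. Deviations of the cell libraries from their mean correlated most between HT-29 and WiDr (r = 0.833) and between HCT 116 and LS123 (r = 0.771), against 0.332 for the next pair (SNU-C1 and LS513), so counts are also given without WiDr and LS123.

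The promoter windows of 4 members are printed to show the stretches that recur in the results by promoter. RefSeq windows (GRCh38.p14, 250 bases before to 50 after an annotated start, 300 bases in all) were at hand for 30 of the 37 members. In the windows of AARS1 (alanine; chr16:70289457-70289756, minus strand), IARS1 (isoleucine; chr9:92293648-92293947, minus strand) and NARS1 (asparagine; chr18:57621787-57622086, minus strand), capitals mark TTGCATCA or its reverse complement, the core of the amino acid response element known from the DDIT3 gene. In the window of HARS1 (histidine; chr5:140691321-140691620, minus strand), capitals mark the 184 bases that it shares with the window of HARS2, its mitochondrial counterpart, which lies head to head with it on the plus strand.
AARS1: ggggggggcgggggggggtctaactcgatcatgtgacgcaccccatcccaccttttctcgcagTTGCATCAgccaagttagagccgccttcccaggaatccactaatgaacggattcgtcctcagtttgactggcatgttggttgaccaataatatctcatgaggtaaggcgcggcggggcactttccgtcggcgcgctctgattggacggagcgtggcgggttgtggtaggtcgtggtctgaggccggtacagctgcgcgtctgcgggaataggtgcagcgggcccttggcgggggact
IARS1: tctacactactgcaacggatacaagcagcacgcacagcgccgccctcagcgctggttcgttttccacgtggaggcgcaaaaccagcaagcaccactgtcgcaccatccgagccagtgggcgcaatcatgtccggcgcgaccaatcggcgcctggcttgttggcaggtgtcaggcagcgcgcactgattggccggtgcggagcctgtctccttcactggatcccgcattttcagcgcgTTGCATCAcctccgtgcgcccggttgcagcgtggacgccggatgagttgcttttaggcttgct
NARS1: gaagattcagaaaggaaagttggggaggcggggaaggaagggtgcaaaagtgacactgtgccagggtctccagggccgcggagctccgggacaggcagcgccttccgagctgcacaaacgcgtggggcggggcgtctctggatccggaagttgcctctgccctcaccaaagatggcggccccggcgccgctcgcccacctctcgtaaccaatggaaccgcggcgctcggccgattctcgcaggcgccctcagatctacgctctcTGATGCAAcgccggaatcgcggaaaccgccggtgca
HARS1: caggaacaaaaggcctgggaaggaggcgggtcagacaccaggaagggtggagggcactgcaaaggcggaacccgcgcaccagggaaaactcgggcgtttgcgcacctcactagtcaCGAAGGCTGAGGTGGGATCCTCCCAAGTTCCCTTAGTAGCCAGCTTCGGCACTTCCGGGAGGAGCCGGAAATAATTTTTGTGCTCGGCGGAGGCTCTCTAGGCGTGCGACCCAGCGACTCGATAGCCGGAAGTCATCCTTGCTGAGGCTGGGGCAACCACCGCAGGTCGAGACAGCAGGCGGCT

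Set against each other over all 10 lines, 26 of 37 synthetase mRNAs (70.3%) were lower in vesicles and 0 were higher (edgeR quasi-likelihood test with line as a block, Benjamini-Hochberg adjusted p under 0.05 over 15130 genes). At an unadjusted p under 0.05 the number higher was also 0, and DESeq2 called 20 lower and 1 higher, CARS2, beside 18.6% lower and 46.8% higher of its genes. Among all genes tested, 28.1% were lower and 28.6% higher. Members lie mostly among well-expressed genes, with 35 of 37 at a mean of at least 10 CPM over all libraries, and of the 10731 genes at that level 39.3% were lower and 10.7% higher. The median log2 fold change, vesicles over cells, was -1.11 over the 37 members and -0.45 over those expressed genes. Every vesicle library lay below every cell library for 9 of the 37 members (24.3%), against 4.35% of all genes tested and 6.09% of the expressed genes. The reverse, every vesicle library above every cell library, held for 0 members, against 8.57% of all genes and 1.56% of the expressed genes. In bulk libraries of this kind, fewer vesicles carrying an mRNA and less of it per vesicle cannot be told apart.

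**Figure D1:**
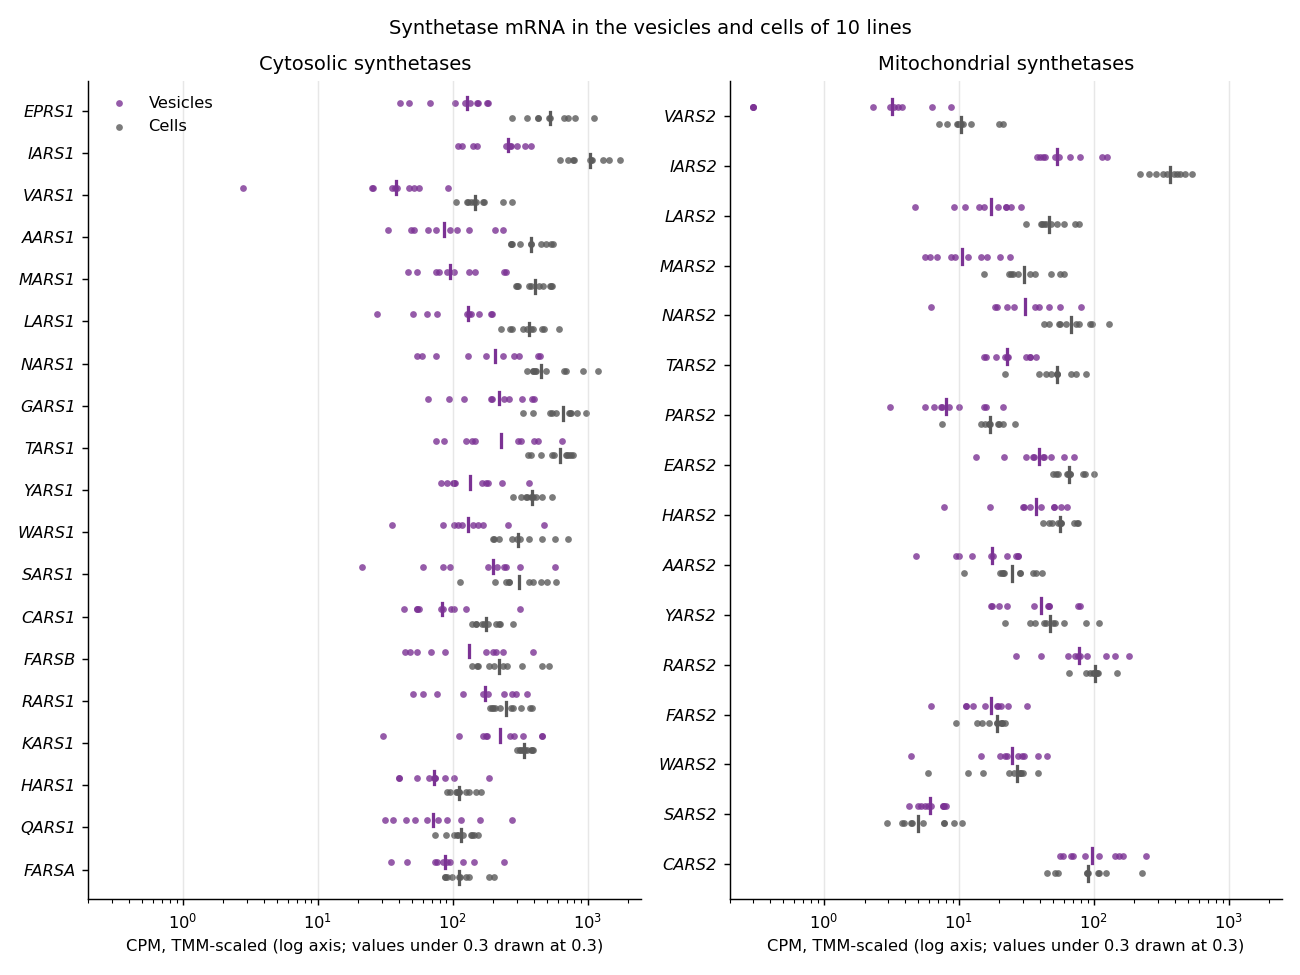
Level of 35 of the synthetase mRNAs in every library, in CPM after TMM scaling on a log axis, with vesicles (purple) above cells (grey) in each row and a bar at the median of 10 lines. Members are ordered by log2 fold change, and the vesicle points lie wholly left of the cell points for 8 of them, among them EPRS1, IARS1 and IARS2.

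Of the 20 cytosolic synthetases, 16 (80.0%) fell and 0 rose, with a median log2 fold change of -1.38. All genes tested were lower in 28.1% and higher in 28.6%, and expressed genes in 39.3% and 10.7%. The 6 widest cytosolic falls were EPRS1, IARS1, VARS1, AARS1, MARS1 and LARS1. These were also the 6 cytosolic members (30.0%) whose vesicle and cell libraries did not overlap. Every vesicle library lay below every cell library for 4.35% of all genes tested and 6.09% of expressed genes.
EPRS1, a fused enzyme for glutamic acid and proline, measured 40.7, 129 and 184 CPM in vesicles (lowest, median and highest line), against 274, 524 and 1109 CPM in cells (log2 fold change -2.35 ± 0.33 SE, edgeR adjusted p = 3.49e-05). The highest vesicle library, HT-29, stayed below the lowest cell library.
IARS1, the isoleucine enzyme, had 110.2, 257 and 382 CPM in vesicles, against 619.9, 1049 and 1730.3 CPM in cells (log2 fold change -2.24 ± 0.30 SE, edgeR adjusted p = 2.20e-05). Its groups did not overlap either.
The valine enzyme VARS1 gave 2.82, 38.1 and 92.5 CPM in vesicles, against 105, 146 and 274 CPM in cells (log2 fold change -2.17 ± 0.36 SE, edgeR adjusted p = 1.55e-04). Its lowest vesicle value rested on 9 counts, and expected background made up 12.8% of its vesicle counts, the highest share among cytosolic members.
For AARS1, whose promoter is shown above, vesicles held 33.5, 86.1 and 235 CPM and cells 271, 379 and 556 CPM (log2 fold change -2.11 ± 0.31 SE, edgeR adjusted p = 5.93e-05). The vesicle libraries of all 10 lines were below every cell library.
MARS1, which charges methionine tRNA including the initiator, stood at 46.6, 96.3 and 247 CPM in vesicles, against 295, 410.0 and 544 CPM in cells (log2 fold change -1.96 ± 0.29 SE, edgeR adjusted p = 5.30e-05).
LARS1, the leucine enzyme and a known leucine sensor of the mTORC1 pathway, had 27.5, 129 and 195 CPM in vesicles, against 230.3, 368 and 618 CPM in cells (log2 fold change -1.86 ± 0.33 SE, edgeR adjusted p = 2.36e-04). The libraries of MARS1 and LARS1 were again separate between vesicles and cells.

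The cytosolic members of smaller falls overlapped between the compartments. Asparagine enzyme NARS1 had 54.6, 207 and 444 CPM in vesicles, against 357, 454 and 1191 CPM in cells (log2 fold change -1.65 ± 0.39 SE, edgeR adjusted p = 0.00229), with 9 of 10 lines lower. The other 9 that passed were GARS1, TARS1 (threonine), YARS1 (tyrosine), WARS1 (tryptophan), SARS1 (serine), CARS1 (cysteine), FARSB (a phenylalanine enzyme subunit), RARS1 (arginine) and HARS1, with log2 fold changes between -1.62 for GARS1 and -0.70 for HARS1. SARS1 (adjusted p = 0.0446), RARS1 (adjusted p = 0.0424) and FARSB (adjusted p = 0.0324) lay closest to the threshold of edgeR's quasi-likelihood test. After the expected background was subtracted, NARS1, GARS1, TARS1 and YARS1 kept their calls. WARS1, SARS1, CARS1, FARSB, RARS1 and HARS1 did not, with edgeR adjusted p between 0.0503 for CARS1 and 0.996 for RARS1. In the lines of lower background SARS1, FARSB and RARS1 were at -0.06, -0.02 and -0.01.
Among the 4 cytosolic members that did not pass were KARS1 (-0.73, adjusted p = 0.0936 by the same test), QARS1 (-0.59, adjusted p = 0.0748) and FARSA, the catalytic partner of FARSB (-0.43, adjusted p = 0.169).

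The enzymes with an unusual compartment, GARS1, KARS1 and QARS1, differed among themselves. GARS1 had 66.1, 219 and 399.5 CPM in vesicles, against 334, 658 and 982 CPM in cells (log2 fold change -1.62 ± 0.32 SE, edgeR adjusted p = 6.25e-04), and was lower in vesicles in 10 of 10 lines.
KARS1 had 30.7, 223 and 462 CPM in vesicles, against 298, 339.6 and 393 CPM in cells. Its cell libraries were close to one another and lay within the spread of its vesicle libraries.
QARS1 had 31.6, 71.6 and 277 CPM in vesicles, against 74.4, 115 and 155 CPM in cells, with the LS513 vesicle library above all others.

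Of the 17 mitochondrial synthetases, 10 (58.8%) fell and 0 rose, with a median log2 fold change of -0.87. The share lower was 28.1% over all genes tested and 39.3% over expressed genes. For 3 of the 17 (17.6%), IARS2 and LARS2 included, the libraries did not overlap between vesicles and cells. Every vesicle library lay below every cell library for 4.35% of all genes tested and 6.09% of expressed genes. Per kb of exon, the median level of a mitochondrial member was 0.379 to 30.6 CPM in vesicles and 1.22 to 88.7 CPM in cells, beside 6.26 to 54.8 CPM in vesicles and 14.2 to 158 CPM in cells for cytosolic members. Of the mitochondrial members, 8 of the 17 had an expected background above 15% of their vesicle counts, against 0 of the 20 cytosolic members.
IARS2, the mitochondrial member of the highest level per kb in cells, measured 37.9, 53.6 and 125 CPM in vesicles, against 220.0, 369.5 and 533 CPM in cells (log2 fold change -2.58 ± 0.26 SE, edgeR adjusted p = 2.20e-06). This was the smallest adjusted p of all members, and every vesicle library lay below every cell library.
LARS2 (leucine) held 4.72, 17.4 and 28.9 CPM in vesicles, against 31.2, 46.2 and 77.5 CPM in cells (log2 fold change -1.68 ± 0.23 SE, edgeR adjusted p = 3.15e-05), with an expected background of 36.7% of its vesicle counts. Without that background its log2 fold change was -1.83.

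VARS2 had the largest fitted difference among mitochondrial members and the least certain one. It measured 0, 3.20 and 8.67 CPM in vesicles, against 7.12, 10.3 and 21.1 CPM in cells (log2 fold change -2.60 ± 0.78 SE, edgeR adjusted p = 0.0107), with a slight overlap between the groups. Its count was 0 in the vesicle libraries of LoVo, SNU-C1 and WiDr, all of higher background. The log2 fold change was -4.57 (edgeR adjusted p = 0.0150) in the lines of higher background and -1.37 (edgeR adjusted p = 0.0568) in those of lower background. The background model expected 189% of the reads that were counted, so the model overstated the background of this gene.
MARS2 (methionine) had 5.63, 10.5 and 23.9 CPM in vesicles, against 15.4, 30.6 and 59.7 CPM in cells (log2 fold change -1.53 ± 0.34 SE, edgeR adjusted p = 0.00154), with some overlap. Expected background made up 19.3% of its vesicle counts. MARS2 was not called after subtraction (edgeR adjusted p = 0.117) or in the lines of lower background (edgeR adjusted p = 0.0533).
NARS2 (asparagine) had 6.26, 31.0 and 80.9 CPM in vesicles, against 42.6, 67.7 and 129 CPM in cells (log2 fold change -1.19 ± 0.35 SE, edgeR adjusted p = 0.00974). Its vesicle libraries reached well into the range of the cells.
TARS2 (-1.08), PARS2 (proline; -0.92), EARS2 (-0.87) and HARS2 (-0.76) also fell. After subtraction none of these was called, with edgeR adjusted p between 0.0687 for TARS2 and 0.616 for HARS2. The remaining 7 did not pass: AARS2 at -0.68 (edgeR adjusted p = 0.0584), YARS2 at -0.46, RARS2 at -0.33, FARS2 at -0.12, WARS2 at 0.13, SARS2 at 0.17 and CARS2 at 0.21. SARS2 was at 4.24, 6.09 and 8.08 CPM in vesicles and 2.94, 4.96 and 10.5 CPM in cells, with 57.9% of its vesicle counts expected as background. CARS2 was at 55.8, 96.9 and 243 CPM in vesicles, against 45.3, 90.3 and 228 CPM in cells, and was called higher (log2 fold change 0.77, edgeR adjusted p = 0.00742) once the expected background was subtracted.

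**Figure D2:**
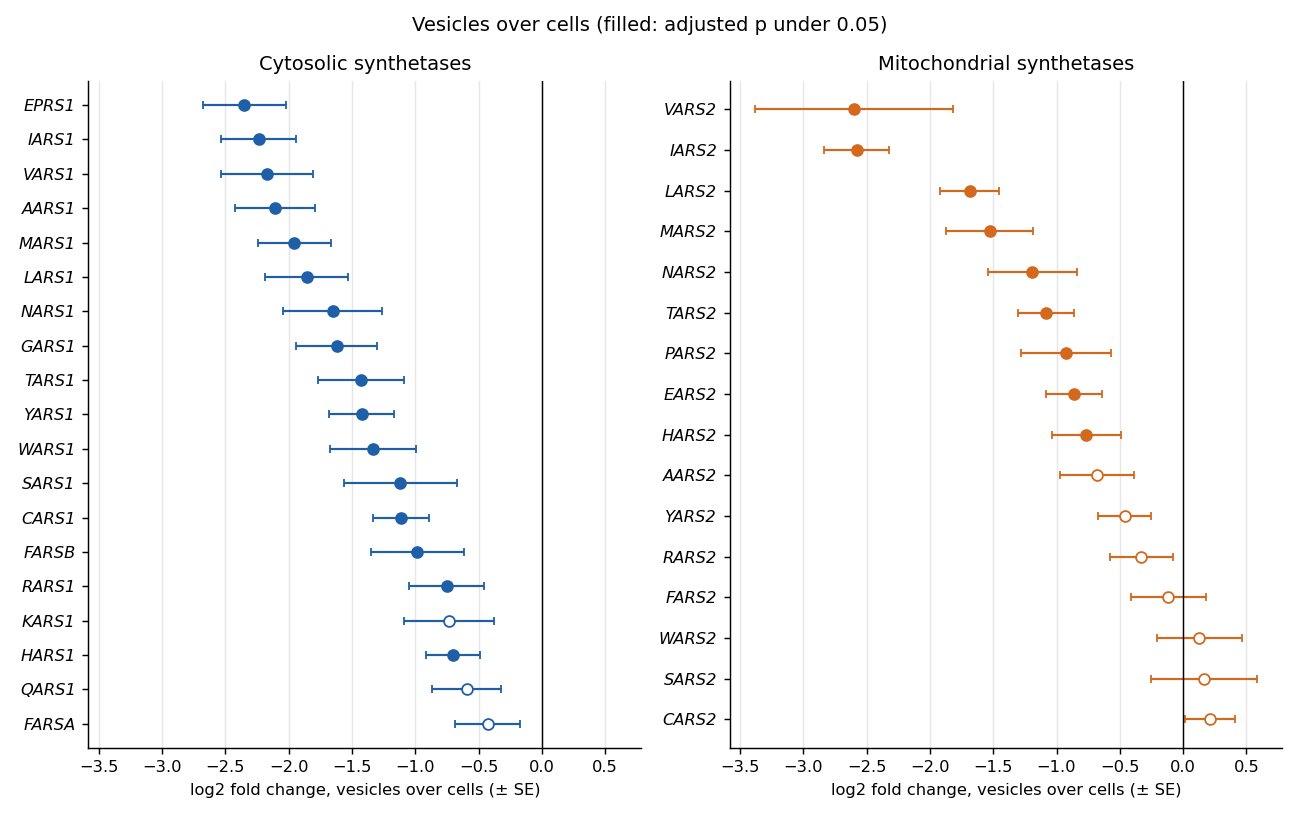
Log2 fold change, vesicles over cells, of 35 of the synthetase mRNAs with the standard error over 10 lines, cytosolic members on the left and mitochondrial members on the right. Filled points passed an adjusted p of 0.05, which 16 of 19 cytosolic and 9 of 16 mitochondrial members drawn did, all of them below 0.

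How many members were called depended on the scaling, the background and LoVo. After the expected background was subtracted, 10 cytosolic and 4 mitochondrial members were lower and 1 mitochondrial member was higher, beside 18.9% lower and 15.7% higher of the genes tested. In the 5 lines of lower background, 9 cytosolic and 5 mitochondrial members were lower, beside 19.0% of all genes. With both steps together, a setting chosen after the data were seen, 6 cytosolic and 6 mitochondrial members were lower and 2 mitochondrial members were higher, beside 17.9% lower and 13.8% higher. The subtracted calls include VARS2 (log2 fold change -6.70), whose background the model overstated, and without it 3 mitochondrial members were lower after subtraction and 5 with both steps. Leaving out LoVo gave 8 and 6 lower, beside 15.8% lower and 31.5% higher of all genes, and moved the median over all genes tested to 0.35 on the log2 scale, against 0.01 with all lines. Upper-quartile scaling moved that median to 0.76 and gave 9 and 3 lower members with 2 mitochondrial ones higher, beside 11.6% lower and 46.0% higher of all genes. Relative to the median of genes of at least 10 CPM, the cytosolic median was -0.93 and the mitochondrial median -0.42 with TMM, and -0.93 and -0.41 with upper-quartile scaling. Taken the same way, the cytosolic and mitochondrial medians were -0.49 and -0.51 after subtraction, -0.32 and -0.49 in the lines of lower background, -0.10 and -0.43 with both steps, and -1.44 and -0.30 in the lines of higher background. Which set lay lower thus differed between these settings. Without WiDr and LS123, 12 cytosolic and 9 mitochondrial members were lower, beside 25.2% of all genes.
Calls of 9 members held under each of the 21 alternatives run: EPRS1, IARS1, VARS1, AARS1, MARS1 and LARS1 among cytosolic members, and 3 mitochondrial ones, IARS2 and LARS2 included.

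Of these 9, 8 encode enzymes of at least 900 codons. Coding lengths, taken as the longest coding sequence in GENCODE release 29, ran over 471 to 1512 codons for cytosolic and 360 to 1093 codons for mitochondrial members. Of the 10 members of at least 900 codons, 9 were lower in vesicles, with a median log2 fold change of -2.14, and AARS2 was the exception. Of the 27 members under 900 codons, 17 were lower, with a median of -0.87. Among all genes tested, of any length, 28.1% were lower, and among expressed genes 39.3%. The limit of 900 codons was set after the values were seen, with MARS1 (900 codons) and LARS2 (903 codons) just inside it and CARS1 (831 codons) and QARS1 (775 codons) just outside. After background subtraction the larger enzymes gave 9 of 10 lower, or 8 of 9 without VARS2, while the smaller ones gave 5 lower and 1 higher of 27. Of all genes in that setting 18.9% were lower and 15.7% higher, so the smaller enzymes were lower about as often as all genes. With subtraction in the 5 lines of lower background these were 10 of 10 lower, or 9 of 9 without VARS2, against 2 lower and 2 higher of 27. Of all genes 17.9% were then lower and 13.8% higher.
Spearman's rho between the log2 fold change and codons was -0.65 over the 20 cytosolic and -0.61 over the 17 mitochondrial members, and was negative within each of the 10 lines over the 37 members (-0.62 to -0.28). Over the 10729 expressed genes with a coding length rho was -0.11. After subtraction rho was -0.63 for cytosolic and -0.51 for mitochondrial members, beside -0.23 for expressed genes. In the lines of lower background these values were -0.71, -0.72 and -0.31, with both steps -0.70, -0.74 and -0.40, and in the lines of higher background -0.57, -0.50 and 0.11. In the fit over all lines other measures of length gave smaller values: -0.62 and -0.44 for the longest transcript, and -0.39 and -0.19 for the summed exons, for cytosolic and mitochondrial members in that order. For cytosolic members the longest transcript gave a slightly larger rho than codons after subtraction (-0.66), in the lines of lower background (-0.75) and with both steps (-0.75). These are descriptions across genes measured in the same libraries, and genes are not independent replicates.

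**Figure D3:**
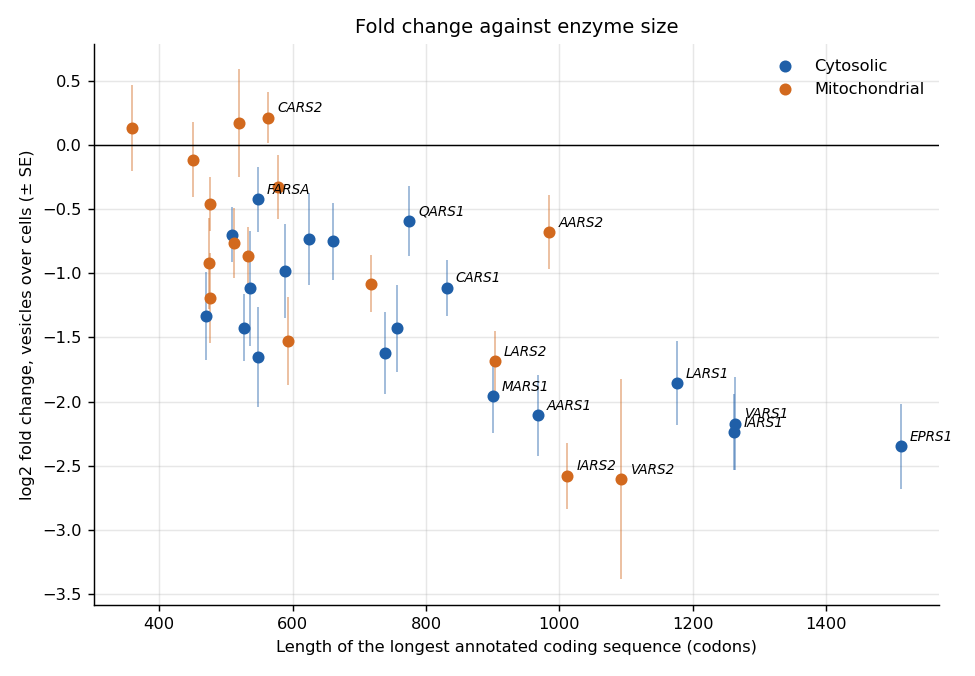
Log2 fold change, vesicles over cells (± SE, 10 lines), against the codons of the longest coding sequence, for 35 cytosolic (blue) and mitochondrial (orange) members. The 10 members of at least 900 codons lie between -2.60 and -0.68, and the 25 shorter ones drawn between -1.65 and 0.21, while 2 members under 900 codons, which all counts and correlations in the text include, are not drawn.

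Members were also counted by complex and by fold. Of the 8 enzymes of the multisynthetase complex, 5 were lower (median -1.36), against 11 of the other 12 cytosolic enzymes (median -1.38). After subtraction these counts were 4 of 8, against 6 of 12, without LoVo 4 of 8, against 4 of 12, and with both steps 4 of 8, against 2 of 12. Of all genes, 28.1% were lower over all lines, 18.9% after subtraction, 15.8% without LoVo and 17.9% with both steps. The 2 of 12 thus lay near the share of all genes. Of the 19 class I enzymes, 14 were lower (median -1.42, with a median of 775 codons), against 12 of the 18 class II enzymes (median -0.95, with a median of 548 codons). The classes are the unrelated folds of the catalytic domain, and EPRS1 was counted as class I by its glutamyl part, although its prolyl part is of class II.
None of the 3 scaffold proteins of the complex passed (0 of 3 in either direction by edgeR, also 0 at an unadjusted p under 0.05): AIMP1 at -0.33, AIMP2 at -0.35 and EEF1E1 at 0.00. In the lines of higher background 3 of 3 were lower (median -1.08), beside 25.5% lower and 34.0% higher of all genes. In the lines of lower background 1 was higher (median 0.71), beside 19.5% of all genes. With both steps 2 were higher (median 1.02), beside 13.8%.

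Summed over the cytosolic members and scaled per kb of exon, the level was 189 to 1139 CPM per kb in vesicles (median 696), against 1104 to 1998 CPM per kb in cells (median 1422). It was lower in vesicles in 9 of 10 lines, with a mean log2 ratio of -1.36 ± 0.96 (SD, n = 10), and COLO-201 was the exception at 0.05. After subtraction the mean was -0.65 with 8 of 10 lines lower, and it was -0.61 in the lines of lower background and -2.10 in those of higher background. The mitochondrial sum was 101 to 235 CPM per kb in vesicles (median 131), against 228 to 329 CPM per kb in cells (median 300.4), lower in 10 of 10 lines with a mean log2 ratio of -1.003 ± 0.387 (SD, n = 10). The cytosolic vesicle sums ordered with background: the 5 lines of lower background held 801 to 1139 CPM per kb of cytosolic members in vesicles, and the 5 of higher background 189 to 591 CPM per kb. The mitochondrial sums did not separate in this way, since the vesicles of COLO-201 (110 CPM per kb) lay below those of LoVo (132), WiDr (130.5), LS1034 (126) and LS123 (116 CPM per kb). Whether background or sequencing depth accounts for the cytosolic order was not tested.
The ratio of the cytosolic to the mitochondrial sum was 1.87 to 10.4 in vesicles (median 4.43), against 4.21 to 6.26 in cells (median 5.02). Its mean log2 difference was -0.35 ± 0.72 (SD, n = 10), which is smaller than its spread, with 7 lines lower and 3 higher. In the 5 lines of lower background the mean was 0.14, and in the 5 of higher background -0.84 with 5 of 5 lower. The value of 0.14 rested on COLO-201 (1.10), since the other 4 of those lines lay between -0.30 and 0.06 with a mean of -0.11. The vesicles of COLO-201 (10.4) and SNU-C1 (1.87) were the extremes.
Vesicles of SNU-C1 were the lowest of the 10 for 22 of the 37 members, and those of SW480 the highest for 11.

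**Figure D4:**
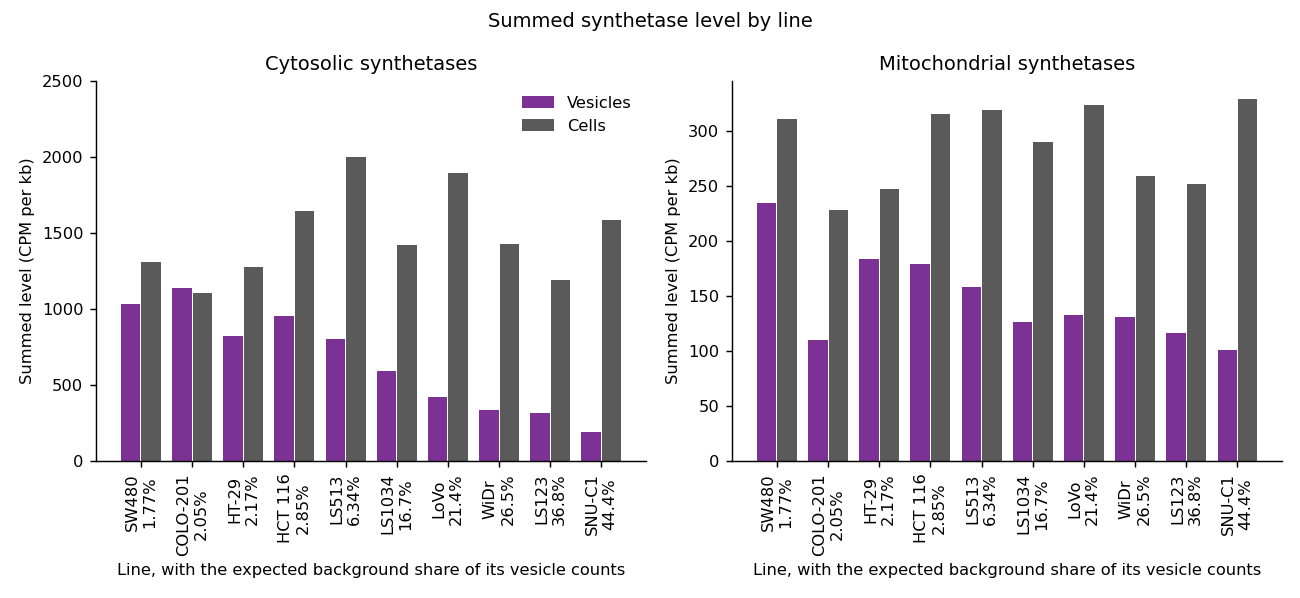
Summed level of the cytosolic (left) and mitochondrial (right) synthetase mRNAs in CPM per kb, for vesicles (purple) and cells (grey) of each line, with 1 library per bar. Lines run by the expected background share of the vesicle library, 1.77% for SW480 to 44.4% for SNU-C1, and the vesicle bars of the last 5 lines are lower than those of the first 5 in the cytosolic plot.

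Each mitochondrial enzyme except PARS2 was set beside its cytosolic counterpart, which gave 17 pairs with FARS2 beside FARSA and beside FARSB. In cells the cytosolic mRNA was the higher one per kb of summed exons in 16 of 17 pairs, and in vesicles in 14. The median ratio in cells ran over 0.940 for HARS1 to HARS2 up to 53.2 for SARS1 to SARS2. These counts and ratios depend on the length measure. HARS1 has 7853 bases of summed exons but a longest transcript of 3494 bases, and HARS2 has 3736 and 2510 bases. The pair counts were not repeated with the longest transcript.
The mean ratio of cytosolic to mitochondrial mRNA was lower in vesicles in 13 pairs, and in 6 after background subtraction. It was lower in at least 8 of 10 lines for 8 pairs and higher in at least 8 lines for 1 pair. The ratio of CARS1 to CARS2 was 0.905 in vesicles and 2.06 in cells, with a mean log2 difference of -1.31 ± 0.85 (SD, n = 10) and 9 of 10 lines lower. HARS1 and HARS2, which share the promoter stretch printed above, had log2 fold changes of -0.70 and -0.76. Their ratio varied between lines, with a mean log2 difference of 0.091 ± 0.90 (SD, n = 10) and a range of -0.90 to 1.79. After subtraction neither was called (-0.14 and -0.33, edgeR adjusted p = 0.639 and 0.616). A part of the shared stretch in these values was not tested.

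In cells, levels per kb ran highest for GARS1 (158 CPM per kb), IARS1 (142), NARS1 (111) and TARS1 (110 CPM per kb), and lowest for VARS2 (1.22) and SARS2 (1.53 CPM per kb). In vesicles the highest were KARS1 (54.8 CPM per kb), GARS1 (52.8) and SARS1 (51.8 CPM per kb), and the lowest again VARS2 (0.379) and SARS2 (1.88 CPM per kb). These medians lie close together at the top in vesicles, where the spread over lines was wider than the gaps between them. Within a line, Spearman's rho between vesicle and cell CPM over the 37 members was 0.75 to 0.92.
Across lines, the highest cell library exceeded the lowest by a median of 2.40-fold for cytosolic and 3.03-fold for mitochondrial members, against 3.90-fold for expressed genes. The widest ranges in cells were WARS2 (6.56-fold), SARS1 (5.18-fold), CARS2 (5.04-fold), YARS2 (4.94-fold) and EPRS1 (4.05-fold). The line with the highest level was the same in vesicles and cells for 9 of 37 members (24.3%), against 25.0% of all genes tested. By set this was 2 of 20 cytosolic and 7 of 17 mitochondrial members.

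The TTGCATCA stretch shown above lay in the promoter windows of 6 cytosolic members, AARS1, CARS1, IARS1, MARS1, NARS1 and TARS1, of 16 with a window, and in 0 of 14 mitochondrial members with one. Both strands were searched, and 0.866% of the 35116 windows in the table held it. By gene, as the members are counted, this was 1.08% of the 27305 genes with a window. In AARS1 it began at position -187 from the annotated start, and in IARS1 at -13. This was one of 7 patterns searched and was chosen after the matches were seen. The looser TGATGNAA, of the same length, which covers its reverse complement, was in 7 cytosolic and 1 mitochondrial member and in 3.62% of windows, CCGGAAGT in 5 and 3 members and 4.14% of windows, and TGACGTCA in 0 members and 1.85% of windows. TGATGCAAT, which overlaps it, was in TARS1 alone, TGATGTAAT in 0 members, and allowing TTGCATAA beside it added no member.
Over all lines, all 6 members with TTGCATCA were lower in vesicles (median -1.80). Of the 10 cytosolic members whose window lacked it, 7 were lower (median -0.87). Among all genes tested 28.1% were lower. Background subtraction gave 5 of 6 and 2 of 10, beside 18.9% of all genes. Leaving out LoVo gave 3 of 6 and 2 of 10, beside 15.8%. The lower-background lines gave 4 of 6 and 2 of 10 (19.0%), and with subtraction 3 of 6 and 1 of 10 (17.9%). DESeq2 kept 6 of 6, against 3 of 10 (18.6%), as did leaving out WiDr and LS123 (25.2%). The higher-background lines gave 6 of 6 and 10 of 10 (25.5%). The 6 also include large enzymes, with a median of 865.5 codons, against 607 codons for those without, and the part of size was not tested.

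Genes that work beside the synthetases were counted from lists chosen by function. Of 13 mitochondrial translation genes, 4 (30.8%) were lower and 0 higher by edgeR's adjusted p (median -0.44), and 0 were higher at an unadjusted p under 0.05. That share lay near the 28.1% of all genes and below the 39.3% of expressed genes. GFM1 (-2.07 ± 0.27 SE, edgeR adjusted p = 2.03e-05) and GFM2 (-1.56 ± 0.26 SE, edgeR adjusted p = 1.46e-04) led, each lower in 10 of 10 lines. After background subtraction 2 were lower and 1 was higher, beside 18.9% lower and 15.7% higher of all genes.
Of 17 other tRNA-linked genes, 7 (41.2%) were lower, near the 39.3% of expressed genes, and 1 was higher, LAGE3, a subunit of the KEOPS tRNA-modifying complex (median -0.47). At an unadjusted p under 0.05 the number higher was 2. After subtraction 3 were lower and 1 higher, beside 18.9% lower and 15.7% higher of all genes. NSUN2, a tRNA cytosine methyltransferase, fell by 1.54 on the log2 scale (edgeR adjusted p = 1.66e-04), and ELP3, the catalytic subunit of Elongator, fell by 1.18 (edgeR adjusted p = 2.13e-04). After subtraction NSUN2 kept its call (edgeR adjusted p = 0.00530) and ELP3 did not (edgeR adjusted p = 0.135).
Of 20 listed ATF4 targets, ATF4 itself among them, 14 (70.0%) were lower and 0 higher by edgeR (median -1.20). Among all genes 28.1% were lower, and among expressed genes 39.3%. Again 0 of the list were higher at an unadjusted p under 0.05. After background subtraction 5 (25.0%) were lower, near the 18.9% of all genes and the 21.6% of expressed genes. ALDH18A1, an enzyme of proline synthesis, fell by 2.20 (edgeR adjusted p = 2.50e-06), and SLC3A2, the heavy chain of amino acid transporters, fell by 2.53 (edgeR adjusted p = 1.76e-05), each in 10 of 10 lines. ATF4 mRNA itself was at -0.52 (edgeR adjusted p = 0.207).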

How the data were processed

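The authors deposited a table of raw read counts for 17113 protein-coding genes in 20 libraries. Per the submitters' processing notes, STAR and featureCounts were used on hg19; tool versions, the annotation and whether strand was used are not given in the sources used here. Reads of overlapping, antisense or near-identical genes therefore cannot be told apart, which bears on neighbours such as HARS1 and HARS2. Every count column matched 1 library title, and 0 value columns were unmapped.

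The comparison was fitted in edgeR 4.0.16 (R 4.3.3) with TMM scaling, filterByExpr, a line term as a block and the robust quasi-likelihood F test. Benjamini-Hochberg adjustment ran over 15130 genes, and 0.05 was the threshold. The block pairs libraries of 1 line per the labels. Each vesicle library's deviations from the group mean correlated with those of its own line's cells at 0.118 to 0.581. The fit was tested on simulated data. Expected background counts came from a quasi-Poisson model on 2077 genes silent in cells, with exonic length and GC content from GENCODE release 29, matched by symbol for 17104 genes (99.9%). Alternatives were other scalings, no low-count filter, no block, DESeq2 1.42.0, background subtraction, line subsets and leaving out each line. Pair ratios used a pseudocount of 0.5 CPM.

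Members, lists and alternatives were chosen with earlier results of these data known. Members were named in full for the 6 largest called changes in each set, with GARS1, KARS1 and QARS1, the 5 widest ranges in cells and the 2 smallest adjusted p of each other list. The counts cover all 37 members, and 2 of them are not reported one by one here.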

Additional observations from a re-analysis of the deposited data

Results flagged for a closer look

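Single libraries stood apart from the other 9 of their group by Dixon's criterion for 9 of the 80 groups of values tested, where chance flags about 1 in 20 groups. In vesicles of COLO-201, YARS1 stood at 368.4 CPM (next highest line 231.4), CARS1 at 313.9 CPM (next 126.5) and WARS1 at 475.4 CPM (next 255.3). The ratio of the cytosolic to the mitochondrial sum in vesicles of COLO-201 was 10.4 (next 5.33). In vesicles of SW480, HARS1 stood at 185.8 CPM (next 102.5) and FARSA at 242.0 CPM (next 143.2). QARS1 stood at 276.7 CPM in vesicles of LS513 (next 159.6). In cells, RARS2 stood at 149.7 CPM in HCT 116 (next 107.0) and CARS2 at 228.1 CPM in SNU-C1 (next 123.2).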

How the results depend on the processing

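Lower members numbered 16 cytosolic and 10 mitochondrial. Cytosolic counts were 9 with upper-quartile scaling, 10 with background subtraction, 9 in the 5 lines of lower background and 6 with both steps (median log2 fold change then -0.32); mitochondrial counts were 6 with library size only, 3 with the upper quartile, 4 with subtraction, 5 in those lines and 6 with both steps. Mitochondrial members called higher were 1 each with DESeq2 size factors, library size, DESeq2 and subtraction, and 2 each with both steps and the upper quartile. The mitochondrial median was -0.39 (library size only) and -0.12 (upper quartile), and the mean log2 ratio of its sum -0.54 with library size only and -0.46 with subtraction. Pairs of lower ratio were 6 with subtraction. Leaving out a line gave 8 to 17 cytosolic and 6 to 10 mitochondrial members lower, the lowest without LoVo. Without the replicate block (no pairing by line) 12 cytosolic and 8 mitochondrial members were lower and 0 higher. The median over all genes was 0.48 with library size only, 0.38 with DESeq2 size factors and -0.03 without the block. Relative to genes of at least 10 CPM, the cytosolic and mitochondrial medians were -0.92 and -0.41, -0.93 and -0.42, and -0.70 and -0.32, in that order. Shares of all genes called are not given for these fits, or for leaving out lines other than LoVo.

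Directions reversed as follows on the log2 scale, and the cause was not tested. With DESeq2 size factors FARS2 was 0.25 and RARS2 0.040, and with DESeq2 0.26 and 0.038. With library size only FARS2 was 0.35, RARS2 0.13, YARS2 0.0090 and FARSA 0.044. With upper-quartile scaling QARS1 was 0.14, HARS1 0.048, FARS2 0.62, AARS2 0.069, RARS2 0.41, YARS2 0.28, KARS1 0.0045 and FARSA 0.32. With subtraction QARS1 was 0.0096, RARS2 0.40, YARS2 0.16, FARSA 0.27 and SARS2 -2.39. In the lines of lower background FARS2 was 0.36, RARS2 0.26, KARS1 0.12 and FARSA 0.12. With both steps SARS1 was 0.25, FARSB 0.29, QARS1 0.063, RARS1 0.29, FARS2 0.52, RARS2 0.56, YARS2 0.19, KARS1 0.43, FARSA 0.40 and SARS2 -0.66. In the lines of higher background WARS2 was -0.37 and CARS2 -0.10. Leaving out each line gave FARS2 -0.23 to 0.29 (positive without LoVo and without SNU-C1), RARS2 -0.44 to 0.13 (positive without LoVo) and WARS2 -0.014 to 0.48 (negative without HCT 116). Reversed members that had been called were SARS1, FARSB, RARS1 and HARS1. Of 385 values of the 35 members given one by one, outside the leave-one-line-out fits, 249 kept direction and side of the threshold. The fit with both steps, the line subsets of the sums and pairs, the counts without VARS2 and the transcript length were added after the data were seen. The lowest vesicle counts of these members were 0 for VARS2 and 9 for VARS1.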
